A study of Homo sapiens with 24 samples.

Results

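The keratin gene family was followed in the human breast carcinoma line SKBR3, whose ERBB2 gene is amplified and encodes the receptor HER2. A gene was counted as a member where its deposited symbol was KRT followed by a number and at most a letter A, B or C, which gave 55 of 60617 rows. Of these, 28 were type I keratins, 26 were type II keratins and KRT222 is a keratin-like gene. The cells formed 3 groups of 8 libraries of polyadenylated RNA: control cells left untreated, cells treated at 4 µg/ml with the HER2 antibody Herceptin (trastuzumab), and cells treated with its biosimilar ApoTras. All cells grew in medium with 10% fetal bovine serum, were seeded at 6500 per cm2 and were lysed for RNA on day 7, with fresh medium on days 1 and 4. Phosphate-buffered saline carried both antibodies. The labels do not clearly state whether the dose of 4 µg/ml also held for the biosimilar, and they list no group with the buffer alone or with an unrelated antibody. All groups come from 1 cell line.

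Keratins are the intermediate filament proteins of epithelial cells. A filament is built from pairs of 1 type I and 1 type II chain, and the chains present tell epithelia apart. KRT8 and KRT18 are the primary pair of simple epithelia, and breast luminal cells also carry KRT7 and KRT19, whereas basal cells carry KRT5 with KRT14. KRT6, KRT16 and KRT17 are induced in activated keratinocytes, KRT1 and KRT10 mark differentiating epidermis, KRT25 to KRT28 belong to the inner root sheath of the hair follicle, and KRT31 to KRT40 and KRT81 to KRT86 build mainly the hair shaft. Type II genes and KRT18 sit in a cluster on chromosome 12, and the other type I genes in a cluster on chromosome 17.

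The library totals ran from 9070186 to 12260086 expected counts (reads per gene as estimated by RSEM, which divides reads that fit several genes) and averaged highest with Herceptin. Levels below are in CPM, counts relative to the scaled library total, and every mean is given with its SD over 8 libraries. Changes are log2 fold changes from edgeR's quasi-likelihood test with Benjamini-Hochberg adjustment over all 13536 genes tested, and a gene was called at an adjusted p under 0.05. Of the markers that define the line, ERBB2 stood at 4174 ± 116 CPM, GRB7 at 263 ± 7.77 and EPCAM at 248 ± 15.2 in control. CDH1 stood at 0.0264 ± 0.049, PGR at 0.038 ± 0.0756 and ESR1 at 1.53 ± 0.45, genes that the line is known to lack or nearly lack. Fibroblast markers summed to at most 5.39 CPM in any library and leukocyte markers to at most 2.25. COL1A1, the only fibroblast marker tested, fell with both antibodies, by a log2 fold change of -0.34 (edgeR adjusted p = 0.00599) with Herceptin and -0.35 (adjusted p = 0.0059) with the biosimilar. Of the 4 endothelial markers, CDH5 stood at 34.8 CPM in control and rose with both antibodies, whereas PECAM1, VWF and KDR stayed at or below 1.29 CPM in every library. The part of CDH5 and COL1A1 in the keratin results was not tested. These are bulk libraries, so fewer cells with an mRNA and less of it per cell cannot be told apart.

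Over all 24 libraries 23 keratin genes passed the filter on low counts and could be tested, and 4 of them made up nearly the whole keratin level in untreated cells. Scaled to the effective length of the gene's transcripts, KRT8 stood at 3114 ± 175 CPM per kilobase, KRT19 at 2902 ± 105, KRT7 at 1723 ± 91.3 and KRT18 at 1583 ± 99.6. Libraries of KRT8 and KRT19 overlapped in this measure, as did those of KRT7 and KRT18, whereas every control library of KRT19 lay above all those of KRT7. The hair keratin KRT81 came next at 252 ± 14.5 CPM per kilobase, followed without overlap by KRT4 of mucosal epithelia (140 ± 7.07), KRT10 (99.1 ± 3.94), KRT80 (72.8 ± 3.68), KRT15 (31.2 ± 2.4) and KRT17 (11.3 ± 2). The other 13 tested members lay between 6.35 and 0.422 CPM per kilobase in the mean, each overlapping its neighbour in the order. The deposited table gives 1 length per gene and does not say from which library it was taken, so ranks of close genes rest on it.

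**Figure D1:**
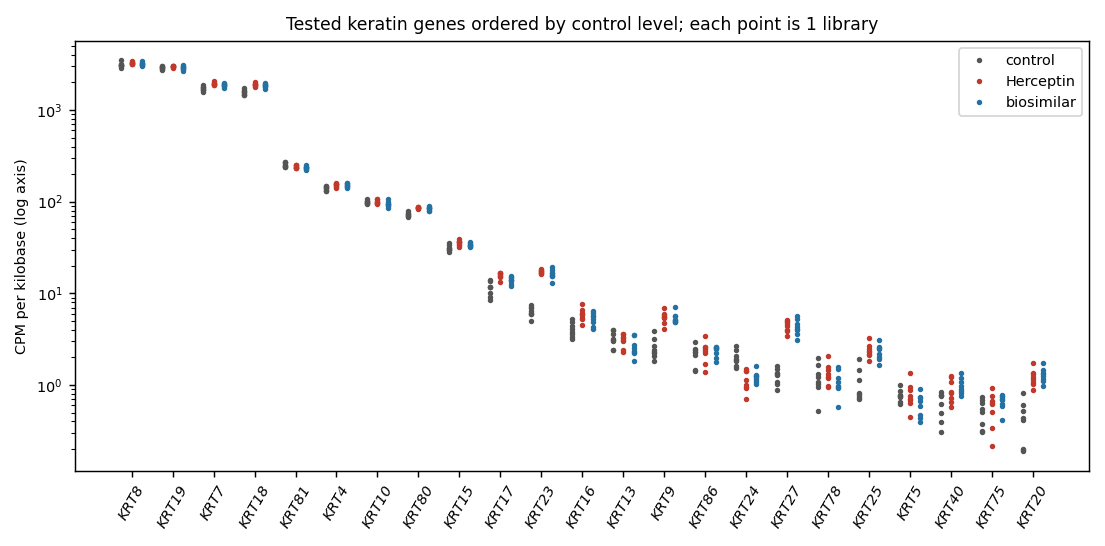
Level of the 23 tested keratin genes in CPM per kilobase of effective length on a log axis, with 1 point per library and 3 groups side by side, ordered by the control mean. KRT8, KRT19, KRT7 and KRT18 form an upper block, KRT81 follows near 252, and the low end is KRT20 at 0.422 in control.

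The 4 luminal keratins together held 93.6% ± 0.0625 of the summed keratin level per kilobase in control, 93.7% ± 0.094 under Herceptin and 93.7% ± 0.135 under the biosimilar. All keratins together took 1.35% ± 0.0551 of the library's counts in control, 1.45% ± 0.0278 under Herceptin and 1.41% ± 0.0488 under the biosimilar. Type II chains stood to type I chains at 1.14 ± 0.0553, 1.13 ± 0.0329 and 1.13 ± 0.0191 per kilobase in the same order. These sums are descriptions and were not tested.

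With Herceptin 14 of the 23 tested keratins rose and 1 fell, and with the biosimilar 13 rose and 2 fell. Over all tested genes Herceptin called 46.4% (22.7% rose and 23.8% fell) and the biosimilar 48% (23.4% rose and 24.6% fell), so a call alone was common in both comparisons. The median log2 fold change of the tested keratins was 0.18 with Herceptin and 0.12 with the biosimilar, and that of all tested genes was -5.2e-04 and -0.0025. With Herceptin 7 keratins lay above every control library, against 8.95% of all genes. With the biosimilar 4 did so, against 7.19%. Rises of at least 2-fold were seen for 5 keratins with each antibody (KRT9, KRT20, KRT23, KRT25 and KRT27), a size reached by 0.768% of all genes with Herceptin and 0.687% with the biosimilar. KRT20 passed the filter on low counts through its treated libraries, since only 1 control library reached the filter's level of 0.973 CPM, so a rise was built into its being tested. KRT40 and KRT75 had 5 control libraries at that level and KRT78 had 7, fewer than the 8 libraries that the filter asks for. These 3 genes thus also passed with the help of treated libraries. The counts of rises above include KRT20 and KRT40. Both comparisons use the same 8 control libraries.

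**Figure D2:**
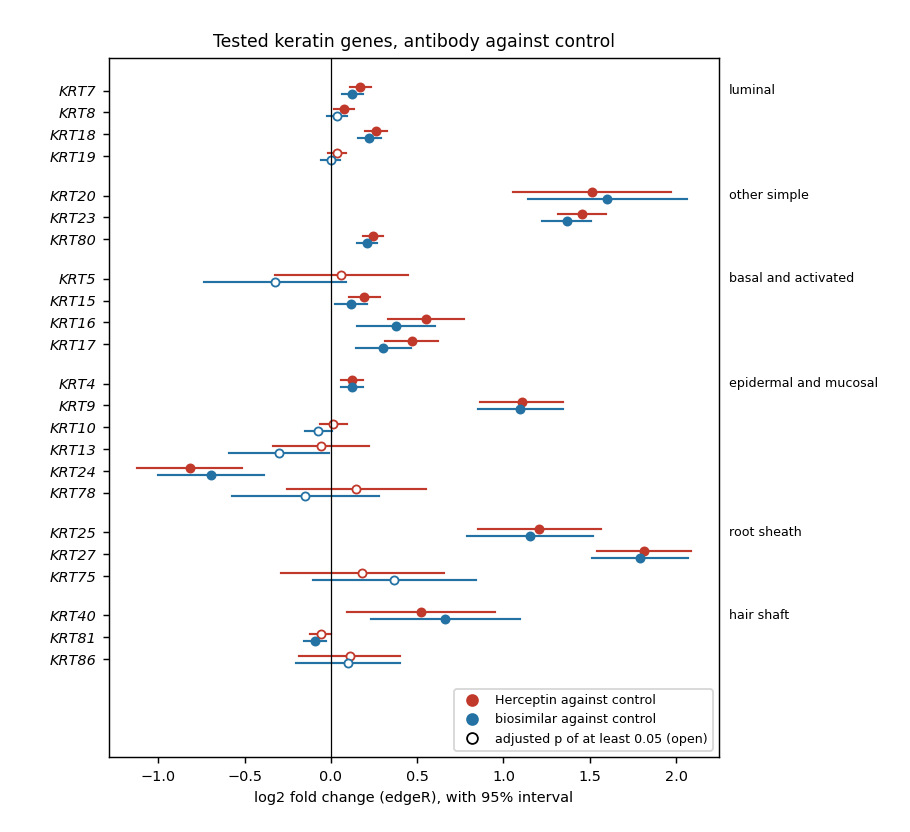
Log2 fold change against control with its 95% interval for each tested keratin gene, grouped by class, in red for Herceptin and in blue for the biosimilar; open circles have an adjusted p of at least 0.05. The largest rises are KRT27, KRT20, KRT23, KRT25 and KRT9, KRT24 lies to the left of 0, and the luminal genes lie between -0.002 and 0.26.

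Among the luminal keratins, KRT18 and KRT7 rose slightly with both antibodies, KRT8 rose by a smaller step with Herceptin, and KRT19 was called in neither comparison. KRT18, the type I partner of KRT8 (chromosome 12, 52948871 to 52952901, plus strand, GRCh38), ran from 1736 CPM over a median of 1858 to 2079 in control, from 2130.1 over 2231 to 2372 under Herceptin and from 2017 over 2176 to 2332 under the biosimilar. All Herceptin libraries lay above all control libraries, and 7 of 8 biosimilar libraries did. Its log2 fold change was 0.26 (edgeR adjusted p = 1.06e-08, SE 0.0323) with Herceptin and 0.22 (adjusted p = 2.76e-07, SE 0.0323) with the biosimilar.

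KRT7, a type II keratin of ducts and glands (chromosome 12, 52232520 to 52252186, plus strand), ran from 1919.5 CPM over 2092 to 2297 in control, from 2304 over 2329 to 2497 under Herceptin and from 2143 over 2283 to 2428 under the biosimilar. All Herceptin libraries again lay above all control libraries, though the lowest, at 2304 CPM, only just passed the highest control library at 2297. Of the biosimilar libraries 3 lay above control. In log2 fold change this was 0.17 (edgeR adjusted p = 6.75e-06, SE 0.0294) and 0.12 (adjusted p = 5.24e-04, SE 0.0294).

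KRT8, the most abundant keratin (chromosome 12, 52897187 to 52949954, minus strand), ran from 4712 CPM over 5001 to 5690.2 in control, from 5149 over 5331 to 5648 under Herceptin and from 4951 over 5181 to 5601 under the biosimilar. The 3 ranges overlapped widely. With Herceptin KRT8 rose by a log2 fold change of 0.075 (edgeR adjusted p = 0.0341, SE 0.0295), and all 8 libraries lay above the control median. That call was lost when any of control libraries 1, 3, 6, 7 and 8 or Herceptin libraries 5 and 8 was left out, with adjusted p values between 0.0514 and 0.0927. It was also lost when libraries were scaled by their totals alone (0.066, adjusted p = 0.0534). With the biosimilar the difference was 0.036 (95% interval -0.024 to 0.095, adjusted p = 0.334).

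KRT19, a small type I keratin that lacks the usual tail domain (chromosome 17, 41523617 to 41528308), ran from 3085 CPM over 3271 to 3431 in control, from 3284 over 3385 to 3425 under Herceptin and from 3018 over 3278 to 3469 under the biosimilar. Neither antibody moved it past the test, with log2 fold changes of 0.037 (95% interval -0.017 to 0.09, edgeR adjusted p = 0.272) and -0.0021 (-0.056 to 0.052, adjusted p = 0.956). The ratio of KRT8 to KRT18 per kilobase was 1.97 ± 0.178 in control, 1.73 ± 0.0769 under Herceptin and 1.73 ± 0.0678 under the biosimilar, a description of the unequal steps of the partners.

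KRT7, KRT8 and KRT18 share sequence with other genes, whereas 0% of KRT19's stretches of read length were found in another gene on either strand. The strand setting of the counting is not given in the sources used here. KRT8 and KRT18 overlap on opposite strands over 1084 bases, and KRT7 overlaps the antisense gene KRT7-AS and, on the same strand, the first part of KRT86. In the annotated transcripts, 6.05% of KRT18's stretches of read length (126 bases) were also found on the opposite strand of another gene, as were 3.63% of KRT7's and 2.82% of KRT8's. Among the other tested keratins, only KRT13 (7.24%) and KRT75 (4.59%), both described below, had such stretches. No library had a whole expected count for KRT7, KRT8 or KRT18, and 12.5% of libraries had none for KRT19. Adding the rows of the KRT8 pseudogenes, which amounted to 1.62% of KRT8's own count, left a log2 fold change of 0.077 with Herceptin (adjusted p = 0.0297).

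**Figure D3:**
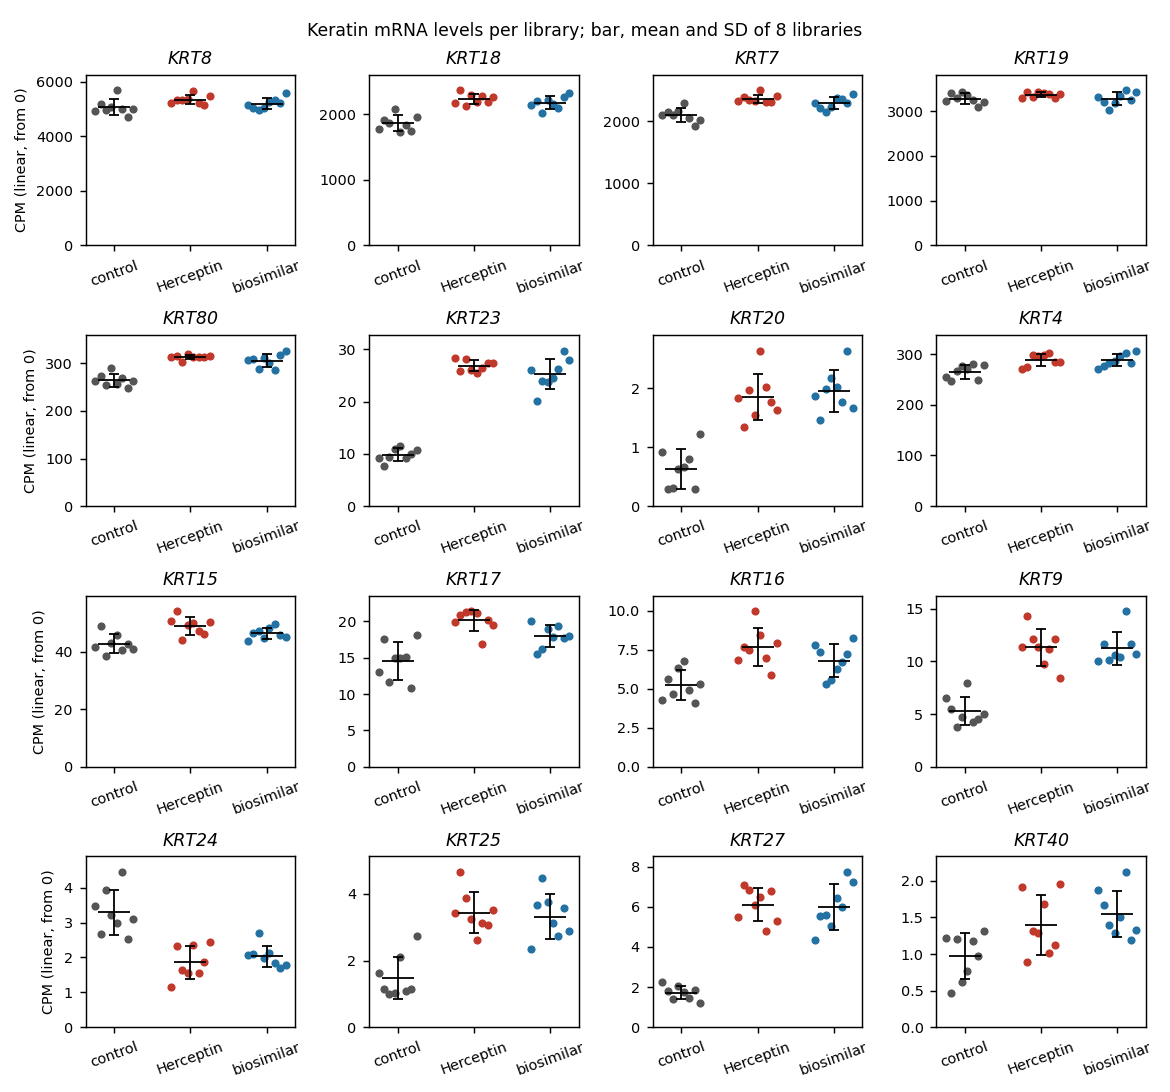
CPM per library on linear axes from 0 for 16 keratins, in grey for control, red for Herceptin and blue for the biosimilar, with a bar at the mean and whiskers of 1 SD over 8 libraries. KRT23, KRT27, KRT9 and KRT20 with either antibody lie above all control points, KRT24 lies lower, and KRT8 and KRT19 overlap across groups.

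KRT20, KRT23 and KRT80 were grouped here as other simple keratins, although KRT80 is not confined to simple epithelia. Of these 3, KRT23 and KRT80 rose with both antibodies, as did KRT20, within the limit given above on how it came to be tested. KRT23, a type I keratin first described in pancreatic cancer cells (chromosome 17, 40922696 to 40937634), ran from 7.70 CPM over 9.74 to 11.5 in control, from 25.5 over 26.9 to 28.3 under Herceptin and from 20.1 over 25.2 to 29.7 under the biosimilar. No treated library came near the control range. The fold change was 2.74 (95% interval 2.49 to 3.01, edgeR adjusted p = 2.2e-20) with Herceptin and 2.58 (2.34 to 2.84, adjusted p = 3.73e-19) with the biosimilar, the smallest p values among the keratins. An antisense gene covers the KRT23 gene body, introns included, on the opposite strand over 14939 bases. In the annotated transcripts, 0% of KRT23's stretches of read length were found on the opposite strand of another gene.

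KRT20, a type I keratin of intestinal epithelium and urothelial umbrella cells (chromosome 17, 40875941 to 40885227), ran from 0.285 CPM over 0.642 to 1.22 in control, from 1.34 over 1.8 to 2.63 under Herceptin and from 1.46 over 1.93 to 2.63 under the biosimilar. The treated libraries all lay above the control ones, at low counts: 51 in the control libraries together, 168 with Herceptin and 161 with the biosimilar. The log2 fold changes were 1.51 and 1.60 in the filtered fit, whose p values are not given because the filter favoured a rise. In the fit of all rows with at least 1 count, where it did not have to pass the filter, KRT20 rose by 1.52 (edgeR adjusted p = 2.95e-09, SE 0.236) and 1.60 (adjusted p = 2.98e-10, SE 0.237). The p values of that fit are not on the scale of the main fit and can be far smaller at a like SE. For KRT23 with Herceptin it gave an edgeR adjusted p of 8.33e-116 (SE 0.0628), against 2.2e-20 (SE 0.0685) in the main fit. The sizes for KRT20 are therefore the safer reading.

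KRT80, a type II keratin found in many epithelia (chromosome 12, 52168996 to 52192000), ran from 247 CPM over 263 to 289.95 in control, from 303 over 313 to 319.8 under Herceptin and from 286 over 308 to 326 under the biosimilar. Herceptin libraries stood clear of control, and 6 of 8 biosimilar libraries did. The edgeR fit gave log2 fold changes of 0.24 (edgeR adjusted p = 6.39e-09, SE 0.0295) and 0.21 (adjusted p = 1.69e-07, SE 0.0296). A long noncoding RNA gene, LINC00592, overlaps the KRT80 gene body, introns included, on the opposite strand over 23005 bases. In the annotated transcripts, 0% of KRT80's stretches of read length were found on the opposite strand of another gene.

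Of the 8 basal and activated keratins, 4 could be tested, and KRT15, KRT16 and KRT17 rose with both antibodies. KRT17, a type I keratin induced in wounded epidermis (chromosome 17, 41619441 to 41624842), ran from 10.9 CPM over 14.9 to 18.1 in control, from 16.9 over 20.5 to 21.4 under Herceptin and from 15.5 over 17.9 to 19.98 under the biosimilar. A Herceptin library lay within the control range, and 5 biosimilar libraries did. Fitted log2 fold changes were 0.47 (edgeR adjusted p = 3.3e-06, SE 0.0761) and 0.3 (adjusted p = 0.00158, SE 0.0787).

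KRT16, a type I keratin that pairs with KRT6 in activated epidermis (chromosome 17, 41609778 to 41615899), ran from 4.07 CPM over 5.11 to 6.74 in control, from 5.87 over 7.59 to 9.95 under Herceptin and from 5.28 over 6.96 to 8.23 under the biosimilar. The ranges overlapped, with 7 Herceptin and 4 biosimilar libraries above control. Log2 fold changes came to 0.55 (edgeR adjusted p = 5.33e-05, SE 0.109) and 0.38 (adjusted p = 0.00522, SE 0.113). In 58.3% of libraries its expected count was not whole, and 2.52% of its stretches of read length also occur in KRT14 or a KRT16 pseudogene.

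KRT15, a basal type I keratin (chromosome 17, 41513743 to 41522529), ran from 38.6 CPM over 42.2 to 49.1 in control, from 44.1 over 49.7 to 54.1 under Herceptin and from 43.7 over 46.2 to 49.8 under the biosimilar. The ranges overlapped, and all treated libraries lay above the control median. In log2 fold change this was 0.19 (edgeR adjusted p = 3.41e-04, SE 0.0442) and 0.12 (adjusted p = 0.0307, SE 0.045). With the biosimilar the call was lost without any of control libraries 1, 3, 6 and 8 or biosimilar libraries 5 and 6, at adjusted p values between 0.0505 and 0.0827.

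The defining basal pair stayed low. KRT5 stood at 1.54 ± 0.238 CPM in control, 1.61 ± 0.542 under Herceptin and 1.24 ± 0.351 under the biosimilar and was called in neither comparison (edgeR adjusted p = 0.824 and 0.194). KRT14 was below the filter at 0.28 ± 0.173, 0.281 ± 0.223 and 0.312 ± 0.123 CPM. KRT6A and KRT6B were below it too, with 26 and 60 counts over all 24 libraries, and KRT6C had none after rounding. The KRT6 genes are close copies, and 18.2% of KRT6B's stretches of read length occur in a relative, so counts may be divided among them.

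Of the 13 epidermal and mucosal keratins, 6 were tested, of which KRT9 and KRT4 rose and KRT24 fell with both antibodies. KRT9, a type I keratin of palm and sole epidermis (chromosome 17, 41565841 to 41572058), ran from 3.73 CPM over 4.88 to 7.96 in control, from 8.41 over 11.3 to 14.3 under Herceptin and from 10.04 over 10.6 to 14.7 under the biosimilar. All treated libraries lay above all control libraries. The fold change was 2.15 (95% interval 1.82 to 2.54, edgeR adjusted p = 3.19e-09) with Herceptin and 2.14 (1.8 to 2.54, adjusted p = 4.7e-09) with the biosimilar.

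KRT4, a type II keratin of esophageal and oral mucosa (chromosome 12, 52806549 to 52814551), ran from 247 CPM over 268 to 279 in control, from 269.6 over 290.1 to 301 under Herceptin and from 270.2 over 285 to 307 under the biosimilar. In each treated group 6 of 8 libraries lay above every control library. The log2 fold change was 0.12 with each antibody (SE 0.0318 and 0.0319, edgeR adjusted p = 0.00165 and 0.00178). KRT13, the type I partner of KRT4, stood far lower, at 3.38 ± 0.648 CPM in control, 3.24 ± 0.537 under Herceptin and 2.76 ± 0.631 under the biosimilar. Its difference with the biosimilar was -0.3 (adjusted p = 0.0841, SE 0.143), and without any of control libraries 1 and 6 or biosimilar libraries 3 and 8 it passed the test as a fall, at -0.35 to -0.37 and adjusted p values between 0.0368 and 0.0478.

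KRT24, a type I keratin of suprabasal keratinocytes (chromosome 17, 40697991 to 40703750), ran from 2.52 CPM over 3.16 to 4.44 in control, from 1.17 over 1.75 to 2.45 under Herceptin and from 1.7 over 2.02 to 2.69 under the biosimilar. All Herceptin libraries and 7 of 8 biosimilar libraries lay below every control library. The log2 fold changes were -0.82 (edgeR adjusted p = 1.99e-05, SE 0.151) and -0.69 (adjusted p = 2.09e-04, SE 0.152).

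KRT10, a type I keratin of differentiating epidermis, stood at 66.8 ± 2.66 CPM in control, 67.5 ± 3.07 under Herceptin and 63.4 ± 4.21 under the biosimilar. It was called in neither comparison (edgeR adjusted p = 0.782 and 0.112), but without biosimilar library 6 the difference with the biosimilar passed the test (-0.1, adjusted p = 0.0206). Its type II partner KRT1 was all but absent, with 0 counts in control, 1 under Herceptin and 9 under the biosimilar, of which 4 came from biosimilar library 1. KRT78 stood between 1.7 and 2.08 CPM in the group means and was not called. KRT3 had 136 counts over all libraries, KRT2 had 57, KRT79 had 9 and KRT12 had 5, and KRT76 and KRT77 had none.

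Markers of keratinocytes were followed beside these genes. Of 7 markers found, 3 were tested. Involucrin (IVL), a precursor of the cornified envelope, rose from 95.9 CPM in control to 167 under Herceptin and 156 under the biosimilar, and KRT5 and KRT10 were not called. The defining markers TP63, KRT14, KRT1 and LOR stayed at or below 0.643 CPM in every library. The summed level of the list ran from 157 to 176 CPM in control, 229.97 to 246 under Herceptin and 204 to 236 under the biosimilar. The part of involucrin-expressing cells in the keratin results was not tested.

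Among 9 root sheath keratins, KRT25, KRT27 and KRT75 were tested, and KRT27 and KRT25 rose with both antibodies. KRT27 (chromosome 17, 40776808 to 40782534) ran from 1.22 CPM over 1.79 to 2.24 in control, from 4.78 over 6.28 to 7.07 under Herceptin and from 4.33 over 5.79 to 7.73 under the biosimilar. The lowest treated library stood well above the highest control library. The fold change, the largest among the tested keratins, was 3.52 (95% interval 2.91 to 4.25, edgeR adjusted p = 2.16e-14) with Herceptin and 3.46 (2.85 to 4.19, adjusted p = 5.2e-14) with the biosimilar.

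KRT25 (chromosome 17, 40748021 to 40755332) ran from 1.01 CPM over 1.15 to 2.73 in control, from 2.63 over 3.34 to 4.66 under Herceptin and from 2.36 over 3.35 to 4.48 under the biosimilar. In each treated group 7 of 8 libraries lay above every control library. The fold changes were 2.31 (95% interval 1.8 to 2.96, edgeR adjusted p = 3.44e-07) and 2.22 (1.73 to 2.86, adjusted p = 1.11e-06). KRT75, a type II keratin of the companion layer, was not called, at 0.995 ± 0.325, 1.13 ± 0.441 and 1.29 ± 0.234 CPM.

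KRT26 and KRT28, which flank KRT27, were too low for the filter. A fit of all 33657 rows with at least 1 count called 2 rises and 0 falls among 27 low keratins with each antibody, where Herceptin had 9.12% of rows rising and 8.82% falling and the biosimilar 9.15% and 9.39%. The 2 rises of 27 were not above the share over all rows. P values of this fit carry the limit given for KRT20. KRT28 had 17 counts in control, 48 under Herceptin and 43 under the biosimilar, and rose in both (1.26, edgeR adjusted p = 0.0158, SE 0.416, and 1.26, adjusted p = 0.0188, SE 0.423). The KRT28 ranges overlapped, at 0 to 0.659 CPM in control, 0.0919 to 0.895 under Herceptin and 0.197 to 0.971 under the biosimilar. KRT26 had 2, 21 and 12 counts, found in 2 control libraries and in all treated ones, and rose with Herceptin (2.72, SE 0.771, adjusted p = 0.00339), whereas 2.11 with the biosimilar missed the threshold (adjusted p = 0.0605). Herceptin library 2 alone gave 7 of the 21 counts. The other rise with the biosimilar was KRT1, described above (adjusted p = 0.00391), whose fitted size depends on the prior count because control had no reads. The type II keratins of the inner root sheath, KRT71 to KRT74, held at most 1 count each over all 24 libraries.

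KRT24 to KRT28 are neighbours on chromosome 17, all on the minus strand, with KRT24 falling and KRT25 and KRT27 rising with both antibodies. KRT28 was called only in the fit without the filter, at low counts and with overlapping libraries. Farther along, KRT10 was not called and KRT20 and KRT23 rose, while KRT12 between them had 5 counts in all. The promoters of these 5 neighbours are shown because the genes lie side by side and KRT24 moved opposite to KRT25 and KRT27. Each holds 250 bases before and 20 after the start site in RefSeq (GRCh38.p14), read on the minus strand at chr17:40703733-40704002 for KRT24, chr17:40755312-40755581 for KRT25, chr17:40772182-40772451 for KRT26, chr17:40782531-40782800 for KRT27 and chr17:40799940-40800209 for KRT28. Capitals mark TATAAA on the printed strand and a 16-base word that KRT25 and KRT28 share.
KRT24: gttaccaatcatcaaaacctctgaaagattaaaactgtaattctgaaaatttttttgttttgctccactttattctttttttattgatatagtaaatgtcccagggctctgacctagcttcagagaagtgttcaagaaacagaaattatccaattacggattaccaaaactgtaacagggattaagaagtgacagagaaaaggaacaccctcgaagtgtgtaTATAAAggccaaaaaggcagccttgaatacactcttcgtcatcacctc
KRT25: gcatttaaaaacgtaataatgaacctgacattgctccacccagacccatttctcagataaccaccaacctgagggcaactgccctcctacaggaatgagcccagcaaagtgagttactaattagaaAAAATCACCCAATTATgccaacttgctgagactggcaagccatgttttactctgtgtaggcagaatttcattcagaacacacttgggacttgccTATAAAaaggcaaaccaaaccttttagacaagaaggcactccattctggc
KRT26: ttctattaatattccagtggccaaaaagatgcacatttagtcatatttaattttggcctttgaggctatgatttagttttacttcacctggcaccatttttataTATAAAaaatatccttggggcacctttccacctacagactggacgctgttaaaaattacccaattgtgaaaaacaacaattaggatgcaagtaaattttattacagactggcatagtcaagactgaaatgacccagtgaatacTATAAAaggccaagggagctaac
KRT27: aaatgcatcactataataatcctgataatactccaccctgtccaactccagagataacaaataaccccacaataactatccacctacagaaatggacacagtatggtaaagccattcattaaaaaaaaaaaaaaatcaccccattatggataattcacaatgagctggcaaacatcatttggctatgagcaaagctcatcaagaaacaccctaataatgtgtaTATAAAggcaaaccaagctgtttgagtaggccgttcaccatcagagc
KRT28: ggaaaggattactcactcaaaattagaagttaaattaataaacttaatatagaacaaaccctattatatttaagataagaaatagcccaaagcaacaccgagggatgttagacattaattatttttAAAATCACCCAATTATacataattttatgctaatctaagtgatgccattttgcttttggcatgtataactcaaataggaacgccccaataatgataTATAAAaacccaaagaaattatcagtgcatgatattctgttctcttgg

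Counted from the start site, TATAAA began at position -28 in KRT24 and KRT28, at -30 in KRT25, at -27 in KRT27, and at -146 and -3 in KRT26. The word AAAATCACCCAATTAT began at -124 in both KRT25 and KRT28, the only 2 of all 35116 RefSeq promoters that held it unchanged. KRT27 held its first 10 bases, AAAATCACCC, at -119, followed by CATTAT instead of AATTAT, so a near copy lies in that neighbour too. Position by position without gaps, the 5 sequences were identical at 21.1% to 36.3% of bases. KRT24, whose level fell, and KRT27, whose level rose, shared the 15-base word TGTGTATATAAAGGC around the TATA box, again the only 2 of all promoters that held it. RefSeq promoters of 300 bases were found for 34 keratin genes in 38 entries, 11 of them tested genes. Searched on both strands, TATAAA was in 55.3% of the keratin entries and 11.5% of all, TGTTTAC (forkhead) in 2.63% and 3.42%, CTTTGAA (TCF/LEF) in 21.1% and 4.43%, and TGANTCA (AP-1) in 0% and 7.71%. The TCF/LEF matches lay in KRT31, KRT32, KRT33A, KRT33B, KRT35, KRT38, KRT39 and KRT85, all hair shaft keratins below the filter. All motif matches describe the letters and do not show binding.

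**Figure D4:**
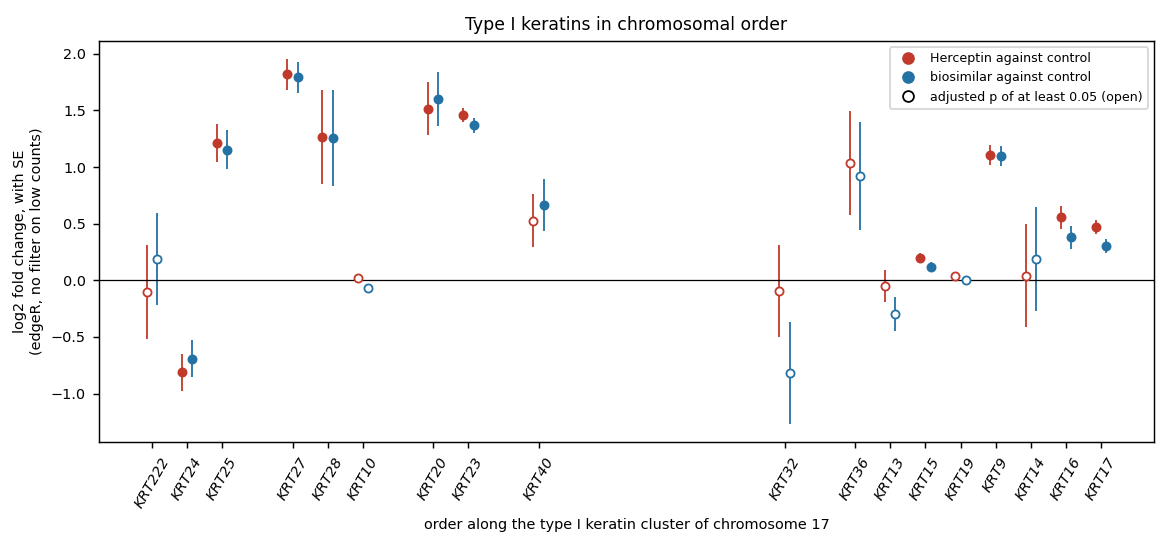
Log2 fold change with its SE along the type I keratin cluster of chromosome 17 in gene order, from the fit without a filter, for members with at least 60 counts over all libraries; open circles have an adjusted p of at least 0.05. KRT24 lies below 0 next to KRT25, KRT27 and KRT28 above it, KRT10 lies near 0, and KRT20, KRT23 and KRT9 lie above 1.

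The hair shaft class held 17 genes, of which KRT81, KRT86 and KRT40 were tested. KRT81, a type II hair keratin that is also known from breast cancer cells (chromosome 12, 52285913 to 52291534, minus strand), ran from 402 CPM over 421 to 460.1 in control, from 394 over 406 to 429 under Herceptin and from 379 over 401 to 429.9 under the biosimilar. The groups overlapped, and 4 biosimilar libraries lay below every control library. It fell with the biosimilar by a log2 fold change of -0.092 (edgeR adjusted p = 0.0131, SE 0.0311) and was not called with Herceptin (-0.06, SE 0.031, adjusted p = 0.112). KRT86 stood at 4.06 ± 0.964, 4.37 ± 1.17 and 4.36 ± 0.589 CPM and was not called. KRT40, a type I hair keratin (chromosome 17, 40977716 to 40987135), ran from 0.475 CPM over 1.08 to 1.32 in control, from 0.895 over 1.3 to 1.96 under Herceptin and from 1.19 over 1.45 to 2.12 under the biosimilar.

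KRT40 rose with the biosimilar, all 8 libraries lying above the control median, by a log2 fold change of 0.66 (edgeR adjusted p = 0.00909, SE 0.213). In the fit where it did not have to pass the filter, KRT40 rose with the biosimilar by 0.66 (edgeR adjusted p = 0.0246, SE 0.231), a p value with the limit given for KRT20. With Herceptin it rose by 0.52 (adjusted p = 0.0402, SE 0.212), in 6 of 8 libraries. That call was lost without any of control libraries 2, 4, 5 and 7 or Herceptin libraries 1, 5 and 8 (adjusted p values between 0.0543 and 0.104), with DESeq2 (0.0651) and without the filter on low counts (0.107). The remaining 14 hair keratins were below the filter. KRT83 had 176 counts over all libraries, KRT32 had 84, KRT36 had 81 and KRT34 had 59, and the fit without a filter called none of them. KRT37 had 27 counts, KRT31, KRT33A, KRT33B, KRT35, KRT38, KRT39, KRT84 and KRT85 had at most 8 each, and KRT82 had none.

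KRT81 and KRT86 are close copies, and 100% and 95.8% of their expected counts were not whole. The coding sequences (GENCODE v29), of 1515 and 1458 bases, were 89.6% identical and shared an unbroken stretch of 605 bases. Of the stretches of read length in KRT81, 26.4% also occur in KRT86, and 21.5% of those in KRT86 occur in KRT81. KRT81 also lies inside KRT86 on the opposite strand. Summed before the fit, KRT81 with KRT86 and KRT83 fell with the biosimilar by -0.087 (edgeR adjusted p = 0.0196) and was not called with Herceptin (-0.057, adjusted p = 0.139). The level of KRT86 alone is therefore uncertain. KRT222, the keratin-like gene at the end of the chromosome 17 cluster, had 94 counts over all libraries and was below the filter.

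None of the 23 tested keratins was called between the biosimilar and Herceptin, where edgeR called 0% of all genes. At an unadjusted p under 0.05 there were 2 keratins, KRT10 and KRT17, against 5.33% of all genes, and DESeq2 and limma-voom called 0 keratins too. KRT17 differed by -0.17 (SE 0.0731, unadjusted p = 0.0296, edgeR adjusted p = 0.893), with 0 of 8 biosimilar libraries above the Herceptin median. KRT10 differed by -0.089 (SE 0.0379, unadjusted p = 0.0245, adjusted p = 0.893). The 95% interval of the fold change lay within 1.5-fold in either direction for 20 of 23 keratins and for 92.6% of all genes. The exceptions were KRT5 (fold 0.58 to 1.01), KRT78 (0.613 to 1.08) and KRT75 (0.833 to 1.55), all at low levels.

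For the genes with the largest rises, every interval between the antibodies included no difference, and those of KRT20 and KRT25 were the widest. The ratio of the biosimilar to Herceptin was 0.983 (95% interval 0.844 to 1.14) for KRT27, 0.941 (0.868 to 1.02) for KRT23, 0.995 (0.86 to 1.15) for KRT9, 0.963 (0.777 to 1.19) for KRT25 and 1.07 (0.825 to 1.38) for KRT20. The 4 luminal genes lay between 0.969 and 0.974, with intervals from 0.93 to 1.02. The median log2 difference of the 23 keratins was -0.039, against -0.0014 for all genes.

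**Figure D5:**
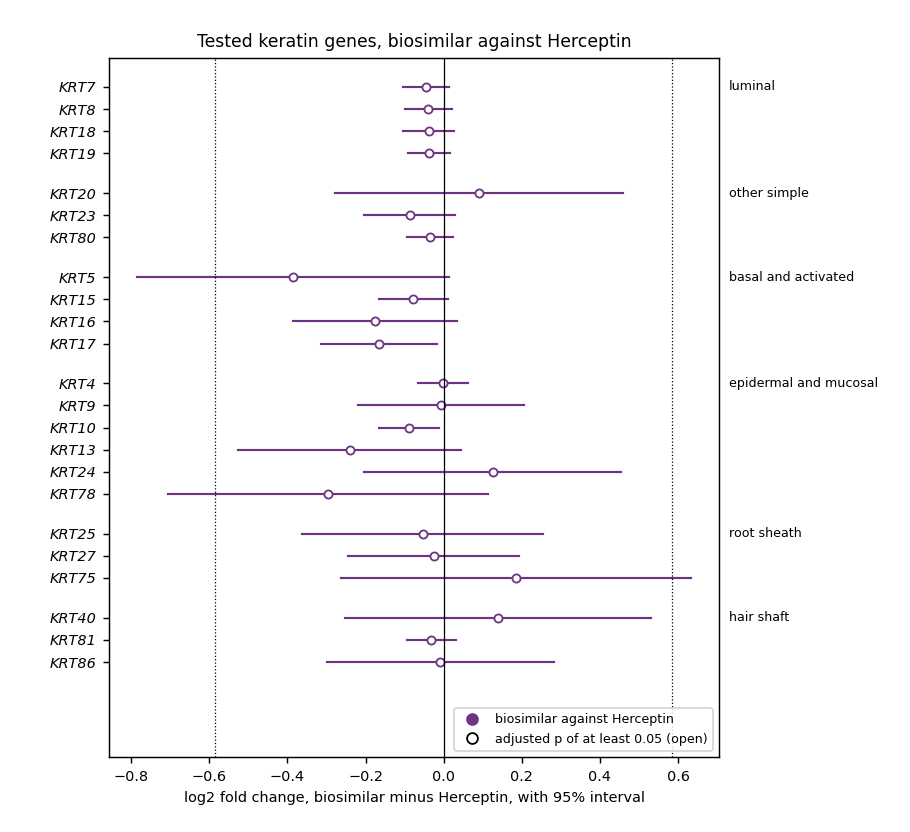
Log2 fold change of the biosimilar against Herceptin with its 95% interval for each tested keratin, grouped by class, with dotted lines at 1.5-fold in either direction. All circles are open, and the intervals of KRT5, KRT78 and KRT75 reach beyond a dotted line.

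Genes that work with keratins were followed in 3 lists, to be read against the 46.4% and 48% of all tested genes called with Herceptin and with the biosimilar. Of 9 proteins that anchor keratin filaments at desmosomes and hemidesmosomes, all were tested. With Herceptin 7 rose and 2 fell, and with the biosimilar 6 rose and 2 fell. Plakoglobin (JUP) rose from 1101 ± 70.8 CPM in control to 1513 ± 42.3 under Herceptin and 1533 ± 71 under the biosimilar (edgeR adjusted p = 3.58e-15 and 1.23e-15). Periplakin (PPL) rose from 68.4 ± 5.27 to 101 ± 5.03 and 102 ± 7.88 CPM, and envoplakin (EVPL) from 145 ± 11.4 to 182 ± 10.2 and 183 ± 10.9. The plakophilins PKP1 and PKP3, which fell with both antibodies, were at 29.8 ± 2.11 and 347 ± 21.1 CPM in control and at 24.3 ± 2.18 and 325 ± 5.86 with Herceptin.

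Of 17 other intermediate filament genes, 7 were tested. With Herceptin 3 rose and 3 fell, and with the biosimilar 2 rose and 3 fell, where over all tested genes 22.7% and 23.4% rose and 23.8% and 24.6% fell. The lamins of the nuclear envelope LMNB1 and LMNB2 fell, LMNB1 from 98.1 ± 1.69 CPM to 75.3 ± 3.74 and 74.1 ± 1.62 (edgeR adjusted p = 1.08e-13 and 3.12e-14) and LMNB2 from 180.4 ± 7.67 to 147 ± 4.33 and 145 ± 5.61. The lamin gene LMNA, at a higher level, rose from 457 ± 18.9 CPM to 506 ± 12.1 and 488 ± 12.5 (edgeR adjusted p = 1.11e-05 and 0.00227). BFSP1, a lens filament protein, rose from 9.39 ± 0.754 CPM to 15.7 ± 1.56 and 14.9 ± 1.36. Vimentin (VIM), the filament of mesenchymal cells, was below the filter with 38 counts over all libraries. Of 14 transcription factors known to act on keratin genes, 12 were tested, and 6 rose and 1 fell with each antibody. With 7 of 12 called in either direction, this list lay not far above the share over all genes. By direction, 6 of 12 rose, where 22.7% and 23.4% of all tested genes rose. CEBPB was the 1 of 12 that fell, where 23.8% and 24.6% of all tested genes fell. GRHL1 rose from 127 ± 4.66 CPM to 154 ± 4.75 and 156 ± 5.4, KLF4 from 39.97 ± 2.46 to 53.1 ± 2.75 and 52.8 ± 3.52, and EHF from 15.3 ± 1.93 to 22.9 ± 0.892 and 23 ± 2.43. TP63, which drives basal keratins, stayed below the filter at 0.284 ± 0.129 CPM in control. None of these 3 lists held a gene called between the biosimilar and Herceptin.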

How the data were processed

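Per the labels' protocols, 24 libraries of polyadenylated SKBR3 RNA were prepared (TruSeq Stranded mRNA) and sequenced from both ends, 126 bases each. The deposited values are expected counts per gene. Per the submitters' processing notes the authors used FastQC, STAR and RSEM on GRCh38.p12; the sources used here do not give the annotation release, trimming, strand setting or RSEM options. The deposited table also gives a length and an effective length per gene, the latter used for levels per kilobase.

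Here expected counts were rounded (a library's total moved by at most 4.56e-04%), and edgeR 4.0.16 (R 4.3.3, limma 3.58.1) kept 13536 of 60617 rows with filterByExpr. All 24 libraries were fitted in 1 model of 3 groups with TMM factors, and the quasi-likelihood F test was two-sided with Benjamini-Hochberg adjustment over 13536 genes. Fold changes used a prior count of 0.125. The 95% intervals are from the t distribution, and the SE is the size over the root of F. Genes varied between replicates with a common biological coefficient of variation of 4.9%. No 2 libraries of a group agreed within sampling noise (84 pairs, chi-square per degree of freedom 1.51 to 8.05), so each counted as a replicate. The labels do not say that replicates were separate cultures beyond their wells, nor give batches, so p-values cover only library-to-library spread, possibly technical.

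The rule for named genes takes every keratin row, gives ranges for luminal members and members called in a comparison, and names up to 3 genes of smallest p in each related list. A few more are named there because they went the other way or were below the filter. Members, classes and lists were chosen with earlier results of these data known. Other settings were DESeq2 1.42.0, limma-voom, RLE factors, library totals alone, no filter, summed rows of similar genes, a replicate block and leaving out each library. The p values of the fit without a filter are not on the scale of the main fit. Gene coordinates are from GENCODE v29, which held 99.5% of tested genes, and promoters are from RefSeq.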

Additional observations from a re-analysis of the deposited data

Results flagged for a closer look

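Among 69 sets of 8 libraries (23 keratins in 3 groups), 4 held a library that stood apart from the other 7 by the gap test used, where chance gives about 1 in 20 sets, or 3.45. KRT17 was lowest in Herceptin library 6 at 16.9 CPM, with the others between 19.5 and 21.4. KRT80 was lowest in Herceptin library 3 at 303 CPM, with the others between 312 and 319.8. KRT24 was highest in biosimilar library 3 at 2.69 CPM, with the others between 1.7 and 2.12. KRT9 was highest in biosimilar library 6 at 14.7 CPM, with the others between 10.04 and 11.6. The calls of these 4 genes against control were kept without the library concerned.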

How the results depend on the processing

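Calls among the 23 tested keratins ranged from 13 to 15 with Herceptin and from 14 to 16 with the biosimilar when each library was left out in turn. They stayed at 14 or 15 under the other settings and were 0 between the antibodies under all settings run. The 2 low keratins called with each antibody in the fit without the filter are not in these counts. Over all genes, leaving out a library gave 5997 to 6447 calls with Herceptin, 6200 to 6657 with the biosimilar and 0 between them. Between the antibodies, all-gene calls were 8 with DESeq2, 12 without the filter and 14 with the replicate block. The labels do not say what a replicate number shares, and replicate numbers did not meet the rule for pairing (every correlation over 0.1): deviations of same-numbered libraries correlated at -0.129 to 0.261 (median 0.0859, 11 of 24 pairs over 0.1). In 9 of 24 pairs the best match was the own number, where chance gives 3, a hint from the data, not the design. The block left 15 keratin calls with each antibody. Uncalled differences near 0 changed sign. Between the antibodies KRT4 was 0.00105 with library totals, KRT86 0.021 with limma-voom and 0.014 with the replicate block, and KRT9 0.00195 with limma-voom. KRT19 with the biosimilar was 5.46e-04 with summed rows. Leaving out a library moved KRT19 with the biosimilar between -0.014 and 0.015, KRT10 with Herceptin between -1.87e-04 and 0.031, and KRT5 with Herceptin between -0.093 and 0.15. Between the antibodies it moved KRT4 between -0.015 and 0.012, KRT9 between -0.077 and 0.048, KRT25 between -0.12 and 0.019, KRT27 between -0.092 and 0.031, and KRT86 between -0.086 and 0.091. The cause was not tested. Depth limits the low members: those below the filter could show only large changes.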
